A study of Homo sapiens with 24 samples.

Results

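PRF1 (ENSG00000180644) encodes perforin, and it was followed through 24 RNA-seq libraries of HCT116 cells as 1 gene of the 58735 in the count tables. The gene was chosen by its own counts in these libraries, namely its level in each of them, its differences between lines at day 0 and its higher level after depletion. Its values are therefore given as a description, with no test, and tests are kept for its chromosomal neighbours and for gene lists. HCT116 is a human colorectal cancer line, and polyA RNA was sequenced from 4 derivatives of it at 2 times, with 3 libraries per group. WT cells carry OsTIR1, the plant receptor that hands tagged proteins to the proteasome, under a doxycycline-inducible promoter, and have no degron. UHRF1-AID cells carry in addition an auxin-inducible degron (AID) with mClover at the C-terminus of UHRF1, and DNMT1-AID cells carry one with mRuby2 at the N-terminus of DNMT1. UHRF1-AID/DNMT1-AID cells, called the compound line here, carry both tags. Day 0 cells were taken before auxin. The day 4 cells of all 4 lines, WT included, had been kept with doxycycline and auxinole, an inhibitor of OsTIR1, and then with doxycycline and auxin. The study's methods name 3 clones of each tagged line as its biological replicates. The labels do not tie a replicate number to a clone, and no clones are named for WT, so p-values measure the spread between these libraries.

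Perforin is the pore-forming protein of the lytic granules of cytotoxic T cells and natural killer (NK) cells. After granules fuse with the membrane at the contact with a target cell, perforin inserts into the target's membrane and lets granzymes, the granule proteases, into its cytosol. It belongs to the MACPF family together with the terminal complement components. Outside cytotoxic lymphocytes the gene is usually silent, and colon epithelium is not a usual source of it. Loss of PRF1, or of genes that bring the granule to the membrane such as UNC13D and STX11, causes familial hemophagocytic lymphohistiocytosis. DNMT1 copies CpG methylation onto the new DNA strand after replication, and UHRF1 recognises hemimethylated DNA and recruits DNMT1 to it.

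In the gene models of the count tables (build hg38) PRF1 lies on the minus strand of chromosome 10, from 70597348 to 70602775. Its 3 exons span 70597348 to 70599181, 70600364 to 70600932 and 70602645 to 70602775, with 2534 exonic bases in all. No other gene of these models overlaps it. The gene to its left is PALD1, 28.9 kb away, and the gene to its right is ADAMTS14, 70.0 kb away. In GENCODE release 44, PALD1 on the plus strand is longer (70478767 to 70668754) and spans PRF1, with a PALD1 exon at 70598888 to 70599084 inside the last exon of PRF1. Whether reads were counted by strand is not given in the sources used here, so reads of such an exon could not be told apart from those of PRF1. PALD1 itself, as counted on its shorter model, is described with the neighbours below. The bases just upstream of the PRF1 gene model are shown because DNMT1 and UHRF1 maintain methylation at CpGs. They are 216 bases from RefSeq (GRCh38.p14), chr10:70602776-70602991, minus strand, with CpGs in capitals.
PRF1 upstream: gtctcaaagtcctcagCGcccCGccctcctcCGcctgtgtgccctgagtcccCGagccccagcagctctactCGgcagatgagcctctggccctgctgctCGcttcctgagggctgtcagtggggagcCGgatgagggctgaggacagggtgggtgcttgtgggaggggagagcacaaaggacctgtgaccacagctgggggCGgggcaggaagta

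These bases hold 8 CpGs. The whole 300-base window of the RefSeq start (250 bases before and 50 after it) holds 9. Of 35116 such windows in the table, 43.6% hold as few or fewer, and the median is 14. Relative to its C and G content the PRF1 window holds 0.285 of the CpGs chance would place, against a median of 0.579 over all windows. The PRF1 window thus holds fewer CpGs than the median window, and most of its neighbours hold more. Of the 16 neighbours tested for expression, 14 had a window in the table, with 2 to 46 CpGs and a median of 26 over their windows. PALD1 holds 41 and ADAMTS14 holds 42, and 13 of the 14 have at least 1 window with more CpGs than PRF1, the exception being UNC5B-AS1 with 2. DNA methylation at these CpGs was not analysed here.

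Letters of factors known to act on PRF1 were searched on both strands of the 300-base window. GGAA, the core of ETS family sites, occurred 3 times, 2 of them within the bases shown, and 95.5% of all windows hold it. TGTGGT, the RUNX core, occurred 1 time (13.1% of windows). GGGCGG, the GC box, occurred 2 times (45.0% of windows). AGGTGT, a T-box core, and the STAT word TTCNNNGAA had no match, and 11.4% and 7.7% of windows hold them. The words may overlap one another, as AGGTGT with TGTGGT or GGAA with TTCNNNGAA. These are matches of letters in 1 window only.

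Gene counts summed to 15824804 in the smallest library and to 25073821 in the largest. The tables' headers name 2 alignment folders. One is shared by 15 libraries, those of day 0 and those of UHRF1-AID cells at day 4, and the other by the 9 of WT, DNMT1-AID and compound cells at day 4, which alone hold counts of ERCC spike-ins (RNAs of known sequence added to a sample). The folder cannot be told apart from the condition where a comparison crosses it, as UHRF1-AID against WT at day 4 does. DNMT1-AID and compound cells against WT at day 4, and UHRF1-AID day 4 against its day 0, lie within a folder. All 9 epithelial markers, EPCAM, KRT8 and CDX2 among them, had over 3 counts in every library, which fits the labelled cell type. Degrons act on the protein, so UHRF1 and DNMT1 transcripts check no label. One library stood apart for PRF1, the third of the compound line at day 0, and the PRF1 levels, folds, ranks and correlations that rest on it are given with and without it.

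PRF1 was detected in all 24 libraries, from 48 counts in a WT library at day 4 to 3290 counts in a compound library at day 0. Levels are given as counts per 1000000 library counts (CPM) scaled by TMM, a normalization that compares the bulk of genes between libraries. WT cells at day 4 had the lowest level, with 4.59, 3.25 and 2.89 CPM in replicates 1, 2 and 3, from 72, 54 and 48 counts. WT cells at day 0 had 8.97, 10.4 and 9.29 CPM. All WT libraries at day 4 lay under all WT libraries at day 0. UHRF1-AID cells at day 0 had 14.6, 8.91 and 5.45 CPM, on both sides of the WT values. DNMT1-AID cells at day 0 had 22.7, 31.6 and 30.1 CPM, with every library over every WT library. The compound line at day 0 had 37.3, 24.8 and 143 CPM, and its replicate 3, with 3290 counts, was 3.84 times as high as the next.

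At day 4 the depleted lines stood in a clear order. DNMT1-AID cells had 44.1, 50.4 and 63.4 CPM. UHRF1-AID cells had 106.8, 96.0 and 112 CPM, and the compound line had 167, 135 and 195 CPM. The 3 ranges did not overlap one another or the WT range. Ordered by mean level over all 8 groups, PRF1 went from WT at day 4 (3.58 ± 0.898 CPM, SD, n = 3) through WT (9.55 ± 0.745), UHRF1-AID (9.65 ± 4.62) and DNMT1-AID (28.1 ± 4.76) at day 0 to DNMT1-AID at day 4 (52.6 ± 9.82), the compound line at day 0 (68.4 ± 65.0), UHRF1-AID at day 4 (104.9 ± 8.19) and the compound line at day 4 (165 ± 30.1). Without its replicate 3 the compound line at day 0 had a mean of 31.1 ± 8.83 CPM (SD, n = 2), under DNMT1-AID cells at day 4 in place of above them. Neighbours in this order of the 8 groups overlapped in 3 places. WT and UHRF1-AID cells at day 0 overlapped, and the compound line at day 0 overlapped both DNMT1-AID and UHRF1-AID cells at day 4, though its other 2 libraries lay under every library of both. Per kilobase of exon, which allows genes to be compared, PRF1 stood between the 43.3 and 49.99 percentile of detected genes in WT libraries at day 4 and between the 95.8 and 97.1 percentile in compound libraries at day 4.

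**Figure D1:**
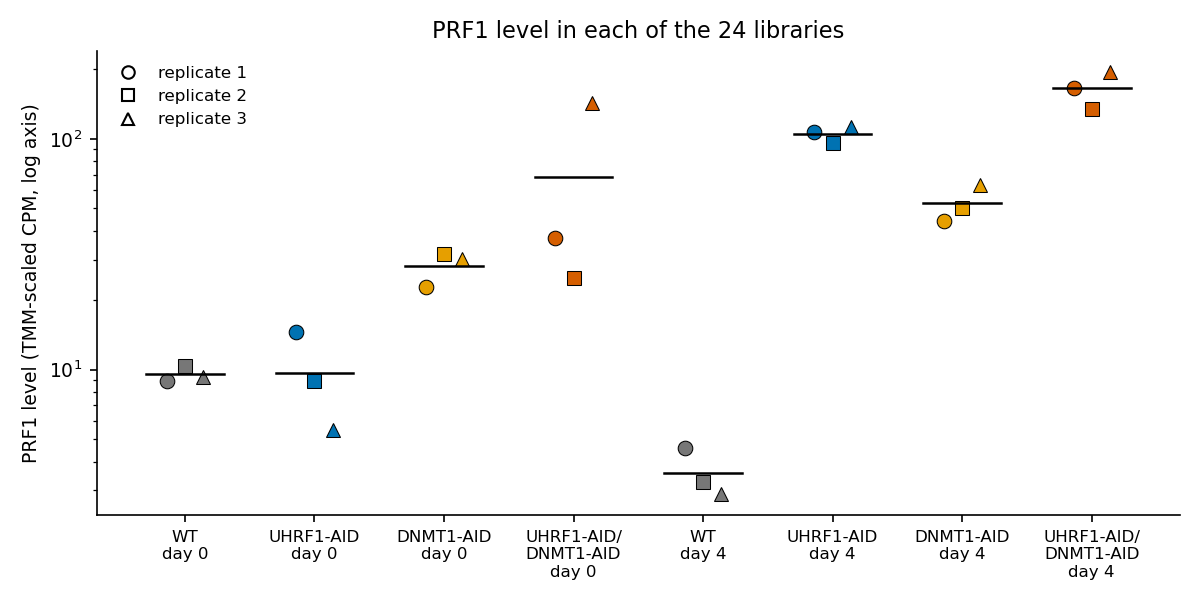
PRF1 level in each library (vertical log axis, TMM-scaled CPM) by line and day, with a symbol per replicate number and a bar at the group mean. WT libraries at day 4 sit lowest, at 2.89 to 4.59 CPM, the day 4 libraries of the compound line sit highest, at 135 to 195 CPM, and the third compound library at day 0 stands at 143 CPM, far above the other 2 of its group.

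Before any auxin, PRF1 was higher in the lines that carry a DNMT1 tag than in WT. The log2 fold change fitted by edgeR, with its standard error (SE), was 1.52 (SE 0.18) in DNMT1-AID cells, which is 2.87-fold. It was 2.81 (SE 0.66) in the compound line, or 7.03-fold, and 1.69 without the third compound library. In UHRF1-AID cells it was 0.02 (SE 0.33), with libraries on both sides of WT. Among all genes tested there PRF1 ranked 11 of 13833 from the top in DNMT1-AID cells, next under TCN1, LMO1 and KRTCAP2. It ranked 16 of 14023 in the compound line, with PDE4D and KRT7 among the genes just above it, and 50 of 14137 without replicate 3. Of all genes tested at day 0, 10.9% had ranges that did not overlap those of WT in UHRF1-AID cells (6.12% with the tagged line higher), 9.8% in DNMT1-AID cells (5.7%) and 28.1% in compound cells (14.9%), beside which the separate ranges of PRF1 in the last 2 are set as a description. High PRF1 at day 0 was thus seen in both lines with a tagged DNMT1 gene and in none of the 3 UHRF1-AID libraries, where it reached 14.6 CPM at most.

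The third compound library at day 0 was high for PRF1, and few other genes had as large a ratio in it. Of 14021 genes compared, 6 (0.0428%, PRF1 included) had a ratio of this library to the higher of the other 2 as large as that of PRF1. The 16 tested neighbours had ratios of 0.608 to 1.2. Among granule genes UNC13D had 1.5 and SYTL2 had 0.728. Of the 8 genes most like PRF1 over all libraries, named further on, SPARC had 5.63, GJA1 had 4.97, MAGEA12 had 6.19 and AFAP1-AS1 had 3.36, while C3 had 1.2. The 8 were chosen over libraries that include this one, which favours genes high in it. SPARC, GJA1, MAGEA12 and AFAP1-AS1 stayed among the first 8 without it. Another count, at a lower cut, took the 15750 genes kept by the filter over all 24 libraries. Genes at least 3 times as high as in both other replicates then made up 1.54% of genes in this library and 0.292% to 2.6% in all libraries. By that count only DNMT1-AID day 0 replicate 3, at 2.6%, stood above it.

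At day 4 PRF1 was higher than in WT after each depletion. The log2 fold change was 3.89 (SE 0.19) after depletion of DNMT1, 4.87 (SE 0.18) after that of UHRF1 and 5.55 (SE 0.20) in the compound line. As folds these were 14.8 (12.9 to 16.9 over 1 SE), 29.2 (25.7 to 33.0) and 46.9 (40.9 to 53.8). The lowest ratio of any depleted library to any WT library was 9.61 in DNMT1-AID, 20.9 in UHRF1-AID and 29.4 in compound cells. Separate ranges with the tagged line higher were found for 14.2%, 21% and 24.5% of all genes in these comparisons. The WT level at day 4 enters all 3, and the same WT libraries serve as the control of each. The UHRF1-AID value crosses the alignment folders, whereas the other 2 do not.

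PRF1 was among the genes with high folds at day 4, but it was not the one with the highest. By log2 fold change over WT it ranked 64 of 13582 genes tested for the DNMT1-AID line, 230 of 13958 for the UHRF1-AID line and 429 of 14219 in compound cells. Most genes above it were near 0 in WT. Among genes with more than 3 counts in some WT library it ranked 11 of 13516, 17 of 13682 and 15 of 13684. The genes next above it were SLC17A7, SRGN and CD74 in DNMT1-AID cells, C3, NNAT and TCEAL3 in UHRF1-AID cells, and DLL3, SPOCK2 and TDRD12 in compound cells. SRGN encodes serglycin, a proteoglycan that packs perforin and granzymes inside granules.

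Within each line, PRF1 was 1.90-fold as high at day 4 as at day 0 in DNMT1-AID cells (log2 fold change 0.92, SE 0.17) and 11.1-fold as high in UHRF1-AID cells (3.47, SE 0.32). In the compound line the log2 fold change was 1.32 (SE 0.78) with overlapping ranges, and 2.45 without the third day 0 library. WT cells went the other way, with -1.42 (SE 0.21), and their 2 ranges did not overlap. Ranges of both days were separate for 48.7% of all genes in WT (24.1% higher at day 4), 60.1% for UHRF1-AID (30.5%), 53.9% for DNMT1-AID (25.4%) and 71.7% for compound cells (35.2%). The fold over WT at day 4 therefore includes a lower WT level at day 4 than at day 0, in libraries that also differ in alignment folder. UHRF1-AID day 4 against day 0 lies within a folder and does not use WT. It still spans the treatment with doxycycline, auxinole and auxin that WT cells had, and the part of treatment alone was not tested.

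Between the depleted lines at day 4, UHRF1-AID exceeded DNMT1-AID cells by 0.95 (SE 0.14) on the log2 scale. The compound line exceeded UHRF1-AID cells by 0.70 (SE 0.14) and DNMT1-AID cells by 1.66 (SE 0.17). The 3 ranges were separate, as were those of 37%, 39.2% and 37.5% of all genes in these comparisons (21.3%, 17.7% and 17.9% with the first line higher). Only the last of these lies within a folder. The 9 libraries with spike-ins allow a scale that does not rest on other genes. PRF1 counts per 1000 ERCC counts were 0.204 to 0.399 in WT, 3.10 to 4.55 in DNMT1-AID and 8.71 to 13.1 in compound cells at day 4, in the same order and without overlap. With libraries scaled by ERCC counts the log2 fold changes over WT were 3.55 in DNMT1-AID and 5.05 in compound cells. The median of all genes moved to -0.35 and -0.49 on that scale, and relative to it PRF1 stood at 3.89 and 5.54. In bulk RNA, more cells with PRF1 transcripts and more transcripts per cell cannot be told apart.

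None of the genes tested around PRF1 was called against WT at day 4 in the main edgeR fits. Within 1 Mb of its start lie 34 other genes, of which 16 had enough counts to be tested. Genes counted as called if their log2 fold change exceeded 1 in size with an adjusted p under 0.05, from the quasi-likelihood test of edgeR, adjusted by the Benjamini-Hochberg method over all genes tested. This held for no neighbour against WT at day 4, where 6.99% of all genes were called for UHRF1-AID (5.77% higher, 1.22% lower), 2.57% for DNMT1-AID (2.29% higher, 0.28% lower) and 11.7% for compound cells (9.21% higher, 2.49% lower). With these shares, 0 of 16 does not set the neighbours apart. An adjusted p under 0.05 with a fold under the threshold was found for 2, 3 and 6 of the 16 in these lines, UNC5B higher in DNMT1-AID cells and the others lower, and an unadjusted p under 0.05 for 3, 5 and 7. DESeq2, which also tests genes of low count, called 1, 0 and 1, in both cases CDH23. The neighbours' median log2 fold changes were 0.03, -0.15 and -0.20, beside 0.03, 0.00 and 0.02 over all genes. The largest absolute value was 0.88 at UNC5B-AS1, 0.91 at UNC5B and 0.91 at TYSND1 in the respective lines, while PRF1 lay at 4.87, 3.89 and 5.55. Ranges of the depleted line and WT did not overlap for 3, 5 and 7 neighbours, against 37.4%, 29.1% and 49.9% of all genes.

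On the left, PALD1, a paladin phosphatase-domain protein expressed in endothelium, had log2 fold changes against WT at day 4 of 0.31, -0.17 and -0.45 in UHRF1-AID, DNMT1-AID and compound cells. It had 59.2, 71.9 and 62.4 CPM in WT, 104, 61.7 and 75.2 CPM in UHRF1-AID and 45.0, 45.8 and 49.4 CPM in compound cells at day 4. PALD1 counts on its shorter model thus did not move with PRF1 counts between lines. That model leaves out the exon inside PRF1, so reads of that exon were not tested. Further left, EIF4EBP2, a repressor of cap-dependent translation, had -0.11, -0.09 and -0.14 in the same order, and LRRC20 had -0.14, -0.45 and -0.51. PPA1, a pyrophosphatase, and SAR1A, a GTPase of COPII vesicles, lay between -0.31 and 0.22. None of these 5 was called against WT in the main fits. Under ERCC scaling, where the median of all genes moved to -0.49, LRRC20 was called lower in compound cells at day 4 (-1.05, adjusted p = 0.00124, edgeR).

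On the right, ADAMTS14, a procollagen protease, had -0.50, 0.39 and 0.09 at low levels of 2.30 to 9.18 CPM over the 12 day 4 libraries. SGPL1, the sphingosine-1-phosphate lyase, lay between -0.14 and 0.05, and PCBD1, a pterin dehydratase and HNF1 cofactor, between -0.39 and -0.16. UNC5B, a netrin receptor, had 0.22, 0.91 and 0.36, and the antisense UNC5B-AS1 had -0.88, -0.21 and -0.25. UNC5B-AS1 lies within UNC5B on the opposite strand, and without known strand use their reads cannot be told apart. CDH23, an outer neighbour named after its values were seen, had too few counts for the main test, with 19, 7 and 11 in UHRF1-AID, 11, 4 and 9 in compound and 1, 1 and 0 in WT cells at day 4. With no filter on low counts it was called higher in UHRF1-AID (adjusted p = 0.00287, edgeR) and compound cells (adjusted p = 0.0115, edgeR).

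At day 0 no neighbour was called in any line against WT by edgeR or DESeq2, with 1, 0 and 3 at an unadjusted p under 0.05 in UHRF1-AID, DNMT1-AID and compound cells. Over all genes 0%, 0.00723% and 1.31% (0.656% higher) were called there. Between days, SAR1A rose (1.00, adjusted p = 0.000122, edgeR) and ADAMTS14 fell by 1.15 (adjusted p = 0.00585, edgeR) in UHRF1-AID cells, where 21.9% of all genes were called (12.1% higher, 9.82% lower). In the compound line, with 26.6% called (15.1% higher, 11.5% lower), MACROH2A2, a histone variant gene, fell by 1.27 (adjusted p = 4.62e-10, edgeR). No neighbour was called in DNMT1-AID cells (15.3% of genes called, 8.62% higher and 6.68% lower, with 7 at an unadjusted p under 0.05) or WT cells (11.9%, 5.37% higher and 6.53% lower, with 9 at an unadjusted p under 0.05), by edgeR or DESeq2. SAR1A had 0.90 in WT cells too. The UHRF1-AID value of SAR1A lay at the fold threshold, and the call remained in 3 of 11 alternatives. It was lost without UHRF1-AID day 0 replicate 1, day 0 replicate 3 or day 4 replicate 2, and ADAMTS14 was lost without the last of these. With the replicate number as a block, ADAMTS14 (-1.19) and UNC5B (-1.03) were called in UHRF1-AID cells and SAR1A was not. Between the depleted lines at day 4 no neighbour was called by edgeR or DESeq2, beside 5.31%, 5.13% and 6.84% of all genes (2.88%, 4.2% and 5.74% higher in the first line), with 5 to 8 at an unadjusted p under 0.05. Beside the shares of all genes given here, the absence of calls does not set the neighbours apart.

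In level per kilobase, PRF1 stood higher among its neighbours in the depleted lines than in WT. Among the 35 genes of the window it stood at place 15 in WT at day 4 and 14 in WT at day 0. It stood at 13 in UHRF1-AID and 9 in DNMT1-AID cells at day 0. After depletion it was at place 6 in DNMT1-AID cells and at place 3 in UHRF1-AID cells, under PPA1 and PCBD1, and 2 in the compound line, under PCBD1.

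The other genes of the perforin pathway were read from lists of granule genes, targets, relatives and regulators. Of 12 granule cargo genes, 4 passed the filter on low counts in UHRF1-AID and compound cells against WT at day 4, and 3 in DNMT1-AID cells. SRGN rose in each line and GZMM, which encodes granzyme M, in 2. Calls of higher level thus went to 2, 1 and 2 of the 12 in UHRF1-AID, DNMT1-AID and compound cells. Of all genes, 5.77%, 2.29% and 9.21% were called higher there. Both genes had few counts in WT and passed the filter through the depleted line, so the share called among those tested is not read. Calreticulin (CALR), a chaperone that binds perforin, and cathepsin C (CTSC), which activates granzymes, were not called. The granzymes that define killer cells, GZMA, GZMB, GZMH and GZMK, had 0 counts in all 24 libraries. Granulysin (GNLY) and NKG7 never exceeded 3 counts, and CST7, a cystatin of granules, had 2 at most.

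SRGN had 7, 1 and 2 counts in WT, 62, 70 and 35 in DNMT1-AID, 137, 184 and 135 in UHRF1-AID and 182, 192 and 138 in compound cells at day 4. Its lines stood in the same order as those of PRF1, with DNMT1-AID lowest and the other 2 overlapping. The log2 fold changes over WT were 4.00 (adjusted p = 0.000211, edgeR), 5.15 (adjusted p = 0.000172, edgeR) and 5.65 (adjusted p = 9.57e-10, edgeR). SRGN also lies on chromosome 10 (69088106 to 69104811), 1.51 Mb from PRF1 and outside the window of neighbours. Unlike PRF1 it was not high before auxin, with 1 to 9 counts in the DNMT1-AID and compound libraries at day 0. UHRF1-AID exceeded DNMT1-AID cells by 1.11 (adjusted p = 0.0307, edgeR), a call lost on leaving out any of 5 of the 6 libraries, all but UHRF1-AID replicate 1, with adjusted p up to 0.114.

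GZMM had 5, 7 and 5 counts in WT, 29, 46 and 52 in UHRF1-AID and 76, 87 and 90 in compound cells at day 4. It rose by 2.55 in UHRF1-AID (adjusted p = 0.00305, edgeR) and 3.89 in compound cells (adjusted p = 1.41e-08, edgeR). In DNMT1-AID cells it had 5, 14 and 3 counts, too few to be tested against WT. Compound exceeded DNMT1-AID cells by 3.52 (adjusted p = 4.33e-06, edgeR) and UHRF1-AID cells by 1.35 (adjusted p = 0.0112, edgeR, lost without compound replicate 2 or 3). The value of PRF1 between compound and DNMT1-AID cells was 1.66, and its difference from that of GZMM was not tested.

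All 12 genes of granule maturation and exocytosis were tested, and 2 rose in UHRF1-AID cells, 1 rose in DNMT1-AID cells and 2 rose in compound cells against WT at day 4. Of all genes 5.77%, 2.29% and 9.21% were called higher there. UNC13D encodes Munc13-4, which primes lytic granules for fusion. It had 0.638, 1.26 and 2.71 CPM in WT, 7.63, 8.16 and 6.82 in DNMT1-AID, 10.1, 9.25 and 12.5 in UHRF1-AID and 24.6, 22 and 26.9 in compound cells. Its 4 ranges did not overlap and stood in the same order as those of PRF1. The log2 fold changes over WT were 2.28 in DNMT1-AID (adjusted p = 0.00482, edgeR), 2.76 in UHRF1-AID (adjusted p = 0.00335, edgeR) and 4.00 in compound cells (adjusted p = 0.000144, edgeR). Without WT day 4 replicate 2 the DNMT1-AID call was lost (adjusted p = 0.0652, edgeR, the highest of 12 alternatives). Compound exceeded UHRF1-AID cells by 1.25 (adjusted p = 0.00248, edgeR) and DNMT1-AID cells by 1.71 (adjusted p = 1.44e-07, edgeR).

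UNC13D was also the member of the perforin-related lists called at day 0. In the compound line it had 5.21, 8.81 and 13.2 CPM beside 2.39, 2.61 and 1.24 CPM in WT, a log2 fold change of 2.08 (adjusted p = 0.0393, edgeR). That call was lost in 5 of 11 alternatives, with adjusted p up to 0.152. They were the replicate block (replicate number as a term of the fit) and leaving out WT day 0 replicate 1, WT day 0 replicate 2, compound day 0 replicate 2 or compound day 0 replicate 3. DESeq2 called 2 members there. In UHRF1-AID and DNMT1-AID cells no member was called at day 0 by edgeR or DESeq2, with 2 at an unadjusted p under 0.05 in each.

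SYTL2, a Rab27 effector that docks granules, was higher than in WT at day 4 by 2.11 in UHRF1-AID (adjusted p = 0.000394, edgeR) and 1.70 in compound cells (adjusted p = 2.28e-06, edgeR). In DNMT1-AID cells it had 0.96 (adjusted p = 0.0308, edgeR), under the fold threshold. Between days SYTL2 was not called in any tagged line. In WT cells SYTL2 fell by 1.02 between day 0 and day 4 (adjusted p = 0.0207, edgeR), a call lost in 8 of 11 alternatives with adjusted p up to 0.0792, the omission of WT day 0 replicate 1 or 2 or of any WT day 4 library among them. VAMP8 and SNAP23, SNARE proteins of secretory vesicles, were not called against WT, with 0.62 and 0.35 in compound cells. VAMP8 rose between days in each tagged line by 1.14 to 1.59, and SNAP23 in UHRF1-AID and compound cells by 1.08 and 1.34. As neither was called against WT at day 4, these rises are not read as particular to the tagged lines. Neither was called in WT between days, and the difference in day change was not tested. STX11, the syntaxin of lytic granules, named after its values were seen, rose between days in all 4 lines, WT included, by 3.06 to 3.93 on the log2 scale, and lay between -0.02 and 0.09 against WT at day 4. The day change of STX11 was thus shared with cells that have no degron, and that of PRF1 was opposite in WT.

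On the receiving side of perforin, none of 6 granzyme targets and inhibitors was called against WT at day 4 by edgeR or DESeq2, with 2, 1 and 3 at an unadjusted p under 0.05 in UHRF1-AID, DNMT1-AID and compound cells. With 6.99%, 2.57% and 11.7% of all genes called by edgeR in these comparisons, 0 of 6 does not set the list apart. SERPINB9, the granzyme B inhibitor, had -0.46 in compound cells. BID, the granzyme B substrate that acts on mitochondria, had 0.19. Of 11 other members of the MACPF family 1, ASTN2, could be tested, and it was not called against WT. MPEG1, the macrophage perforin-2, and the complement genes C6, C8A and C8B were among 6 members at 0 counts in all 24 libraries.

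Against WT at day 4, 2 of the 12 tested among 18 regulators of PRF1 transcription were called higher in UHRF1-AID cells. None of 10 was called in DNMT1-AID cells (4 at an unadjusted p under 0.05). In compound cells 3 were called higher and 1 lower of 13. The shares of all genes called were 6.99%, 2.57% and 11.7%, and 0 of 10 does not set the list apart. Members such as STAT5A and TBX21, with few or no counts in WT, passed the filter on low counts through the depleted line. The share called among the regulators tested is therefore not read. STAT5A, which carries IL-2 and IL-15 signals, had 0 counts in WT, 15, 13 and 22 in UHRF1-AID and 31, 14 and 18 in compound cells, at least 4.42-fold and 6.99-fold higher over a floor of 3 counts per library. TBX21 (T-bet), a T-box factor of killer cells, had 3, 1 and 0 counts in WT and 19, 24 and 18 in compound cells (adjusted p = 0.00011, edgeR). ETS1 was lower by 1.59 in compound cells than in WT at day 4 (adjusted p = 2.44e-07, edgeR), and STAT3 had 0.60 there. Between days ETS1 rose in WT by 1.63 (adjusted p = 0.00044, edgeR), in UHRF1-AID by 1.39 and in DNMT1-AID cells by 1.85. It was not called in compound cells between days. IL2RB, the receptor chain shared by IL-2 and IL-15, named after its values were seen, rose by 2.65 in compound cells (adjusted p = 0.000277, edgeR) and by 1.97 in UHRF1-AID cells (adjusted p = 0.0459, edgeR), the latter lost in 6 of 11 alternatives, with adjusted p up to 0.188. These were the replicate block, DESeq2, and the fits without WT replicate 1, 2 or 3 or without UHRF1-AID replicate 3. EOMES and RUNX3, named likewise, are factors of the killer programme, and they lay between -0.39 and 0.59 without a call. IL2RA had 0 counts in all 24 libraries. The median over the regulators tested was -0.08, 0.11 and -0.29 in UHRF1-AID, DNMT1-AID and compound cells, beside 0.03, 0.00 and 0.02 over all genes.

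**Figure D2:**
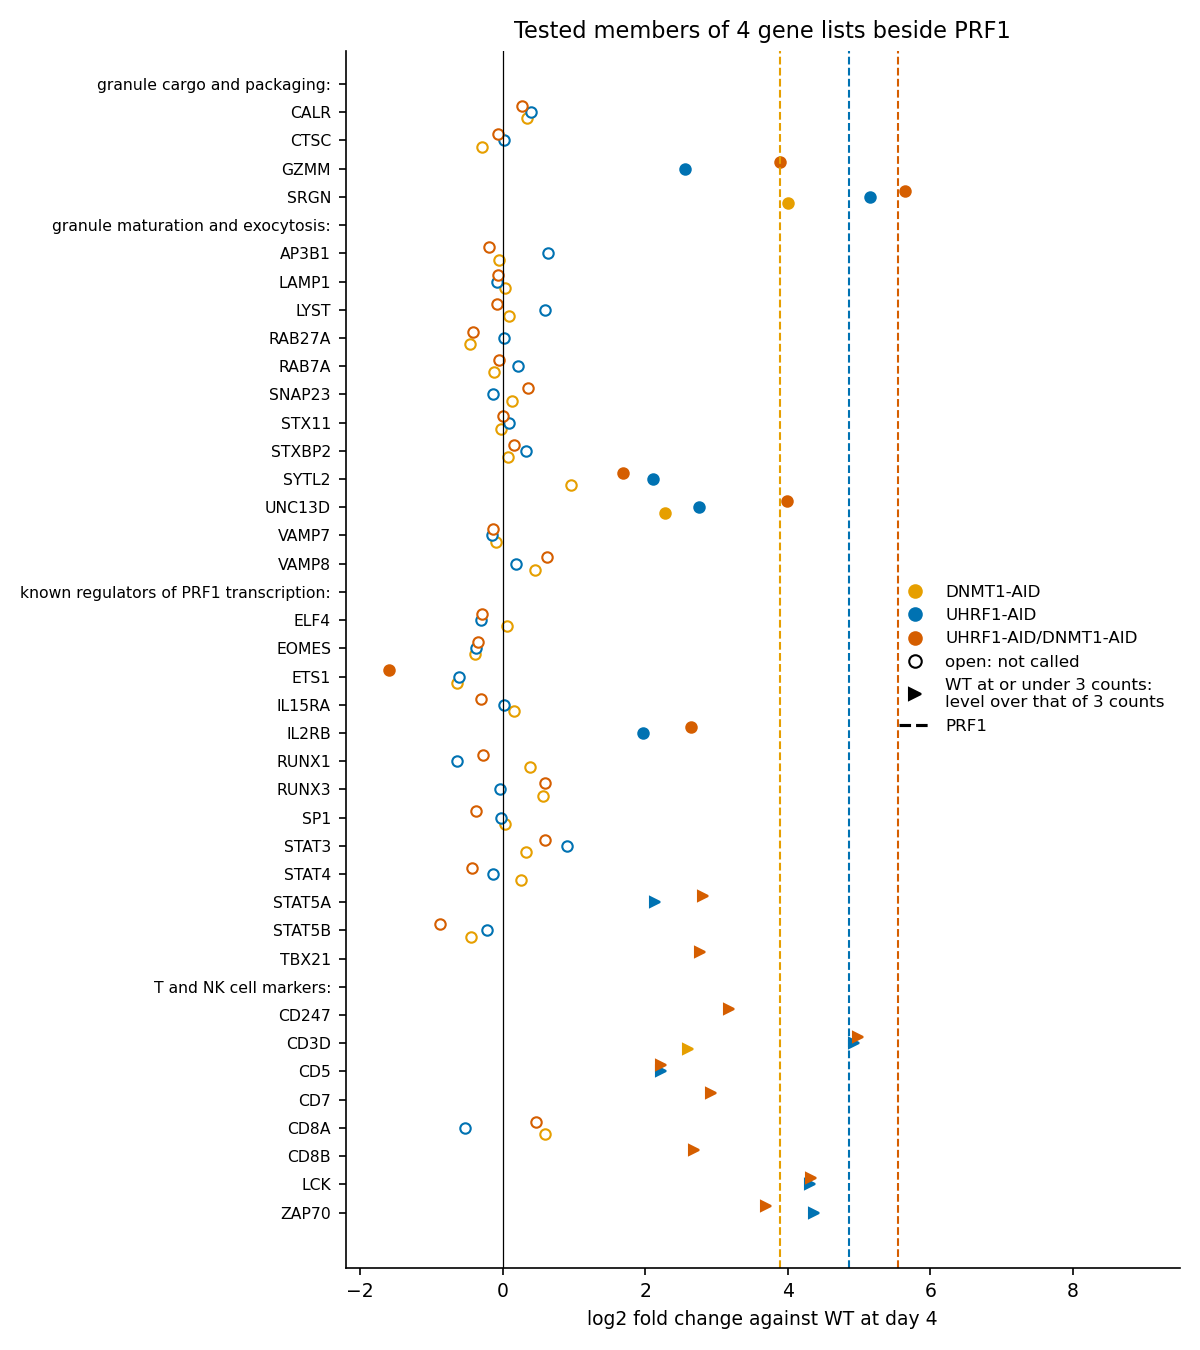
Log2 fold change against WT at day 4 (horizontal axis) of each tested member of 4 gene lists, by line, with filled symbols for called genes, arrowheads for genes whose WT libraries had 3 counts at most, plotted at their level over that of 3 counts, and dashed lines at the values of PRF1 (3.89, 4.87 and 5.55). SRGN, UNC13D and GZMM lie to the right, while most genes of granule exocytosis and most regulators lie near 0.

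Markers of T and NK cells had higher summed levels in the depleted lines than in WT at day 4, far under the level of PRF1. Over 22 markers the summed level was 1.26 to 2.36 CPM in WT, 4.42 to 6.16 in DNMT1-AID, 16.5 to 19.5 in UHRF1-AID and 18.2 to 21.9 CPM in compound cells at day 4. In WT the sum was 1.17 to 1.46 CPM at day 0, so it did not follow the lower PRF1 level of day 4. Calls of higher level went to 4, 1 and 7 of the 22 markers after depletion of UHRF1, of DNMT1 and of both, beside 5.77%, 2.29% and 9.21% of all genes. Only 5, 2 and 8 passed the filter on low counts, most of them through the depleted line, so the share called among those is not read. CD3D, a chain of the T cell receptor complex, had 0 counts in every WT library and in all day 0 libraries. At day 4 it had 22, 21 and 12 counts in DNMT1-AID, 112, 121 and 107 in UHRF1-AID and 101, 96 and 87 in compound cells, at least 6.05-fold, 30.5-fold and 31.6-fold higher than WT. The kinase ZAP70 was at least 20.7-fold higher in UHRF1-AID and 13.0-fold higher in compound cells. LCK had 0, 1 and 3 counts in WT, 66, 72 and 86 in UHRF1-AID and 65, 53 and 63 in compound cells, and CD247 had up to 2 in WT and 21 to 32 in compound cells.

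Several markers that define these cells were absent. CD2, KLRB1, KLRF1, NCR1 and the receptor constant genes TRAC and TRBC1 had 0 counts in all 24 libraries. PTPRC (CD45), present on all leukocytes, had 15, 11 and 4 counts in UHRF1-AID cells at day 4, 1, 0 and 0 in WT and 4 at most in compound cells. It had too few counts for the main test and was called higher in UHRF1-AID cells by DESeq2 and with no filter, as NCR3, an NK receptor, was in compound cells. CD3E and CD3G, the partners of CD3D in the receptor complex, had at most 2 in any library. The third compound library at day 0, with PRF1 at 143 CPM, had a summed marker level within the 1.81 to 2.23 CPM of its group, beside 1.17 to 1.46 CPM in WT at that day. Of 10 markers of other leukocytes, 2, 1 and 4 were called higher in UHRF1-AID, DNMT1-AID and compound cells against WT at day 4. The shares of all genes called higher there were 5.77%, 2.29% and 9.21%. These markers were CD4 and CSF1R in UHRF1-AID and CSF1R in DNMT1-AID cells, with CD4, CSF1R and CD14 among those in compound cells. No other member passed the filter on low counts there, so the share called among those tested is not read. FCGR3A had 0 counts in all 24 libraries, and the 10 summed to 5.90 CPM at most. Epithelial markers summed to 4419 to 9714 CPM over all libraries, and CDX2 was the one of 9 called against WT, by 1.32 in compound cells (adjusted p = 3.33e-08, edgeR), a call lost under ERCC scaling at 0.81. The part of other cells in the PRF1 level was not tested beyond these values.

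PRF1 was compared with 15749 other genes by the correlation of log2 CPM across the 24 libraries. These libraries share lines, days and folders, so the values are a description. The 8 genes most like it by Pearson's r were GJA1 (0.951), which encodes the gap junction protein connexin 43, SPARC (0.943), a matrix glycoprotein, C3 (0.928), the central complement protein, HSD17B1 (0.925), an estradiol-forming enzyme, the noncoding AFAP1-AS1 (0.923), the cancer/testis gene MAGEA12 (0.917), GARIN5A (0.913) and UNC13D (0.909). In all, 12 genes had r over 0.9 and 206 had r over 0.8, and the median was 0.02. Of the 8, 4 were also among the 8 most alike by Spearman's rank correlation. None of the 8 lies on chromosome 10. Without the third compound library at day 0, r for these 8 lay between 0.905 and 0.948 and 6 of them stayed among the first 8. GARIN5A then stood at place 16 and UNC13D, the one with a role in granules, at place 21, while HYAL1 and PSTPIP1 entered. In that setting 28 genes had r over 0.9 and 363 had r over 0.8. For the granule cargo genes r was 0.78 (SRGN) and 0.64 (GZMM), and for the tested neighbours it lay between -0.65 (TYSND1) and 0.44 (SAR1A). CDH23, a neighbour with too few counts for the main test, had 0.72, and 0.78 without compound day 0 replicate 3.

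**Figure D3:**
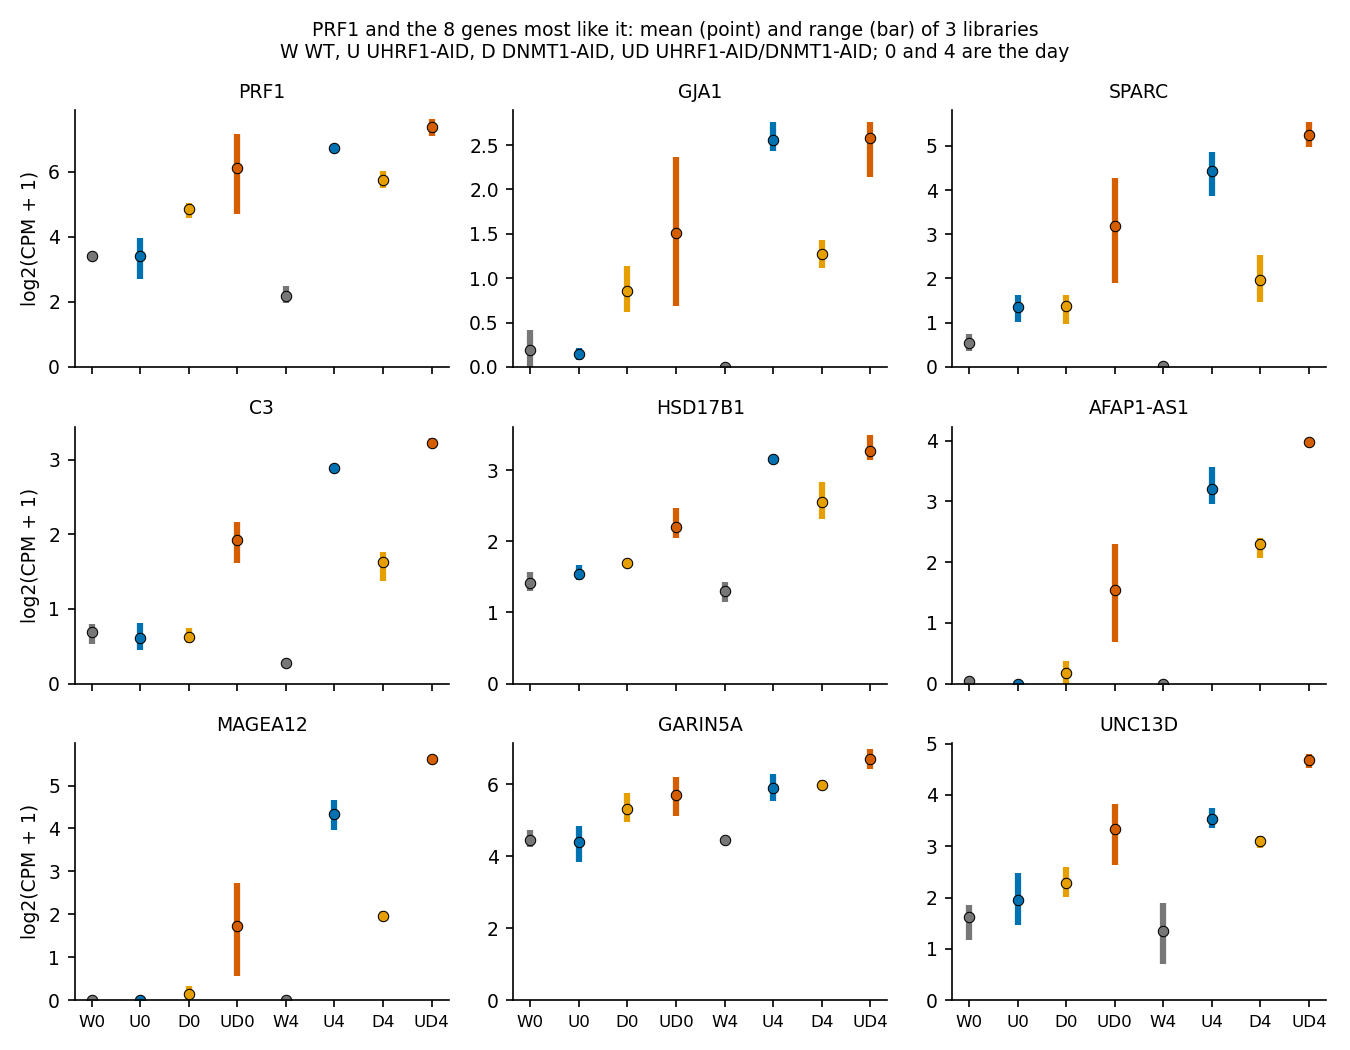
Level of PRF1 and of the 8 genes most like it (vertical axis, log2 of CPM + 1) in the 8 groups, with a point at the mean and a bar over the range of 3 libraries. PRF1, GJA1, SPARC, AFAP1-AS1 and MAGEA12 share a wide range in the compound line at day 0, while C3 and HSD17B1 do not.

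Several of the genes most like PRF1 differed from it in level and in WT. GJA1, AFAP1-AS1 and MAGEA12 had 0 counts in all WT libraries at day 4 and SPARC had 1 at most, whereas PRF1 kept 48 to 72. GARIN5A, UNC13D and HSD17B1 kept counts in WT, up to 350, 45 and 28. At day 4 SPARC had a mean of 2.89 CPM in DNMT1-AID, 20.7 in UHRF1-AID and 36.7 in compound cells, and MAGEA12 had 2.92, 19.3 and 47.9 CPM. PRF1 had 52.6, 104.9 and 165 CPM, a narrower span than theirs. GARIN5A, with 61.7, 58.7 and 103 CPM, and HSD17B1, with 4.86, 7.91 and 8.67 CPM, spanned less than PRF1. In DNMT1-AID cells at day 0, where PRF1 had 28.1 CPM beside 9.55 in WT, GARIN5A had 38.6 beside 21.1 CPM, GJA1 had 0.812 beside 0.145 CPM and UNC13D had 3.86 beside 2.08 CPM. C3, in contrast, had 0.538 beside 0.616 CPM. Of the 8 genes, RefSeq windows were in the table for 3, with 3 CpGs at GJA1, 11 at SPARC and 9 and 15 at the 2 starts of MAGEA12, beside 9 at PRF1.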

How the data were processed

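PolyA RNA of 24 libraries was sequenced in paired ends after preparation with a NEBNext Ultra kit. The authors used Trimmomatic for trimming and STAR for alignment to hg38, and they made the deposited counts per gene with featureCounts. Its strand and multimapping settings are not given in the sources used here. The submitters' processing notes name STAR, featureCounts and hg38. The tables held 58735 genes, of which 58207 were matched to a symbol, and 92 ERCC sequences, which stayed out of library sizes.

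Genes were filtered with filterByExpr within the libraries compared, scaled by TMM and tested with edgeR 4.0.16 (quasi-likelihood, robust) in R 4.3.3, with Benjamini-Hochberg adjustment over all genes tested. CPM used TMM factors over all 24 libraries, and per-kilobase values used the exonic length of the tables. A fold against a gene at 0 in WT was taken against a floor of 3 counts per library, which covers counting error only. Figures used Python 3.11.15 with pandas 2.3.3 and matplotlib 3.10.9. The fits were tested on simulated data. Alternatives were DESeq2 1.42.0, RLE scaling, no filter, all 24 libraries in 1 fit, a replicate block, leaving out each library, a window of 0.5 Mb, no minimum fold change and, for likeness, Spearman's correlation. ERCC scaling for lists and neighbours, and likeness and ranks without compound day 0 replicate 3, were chosen after seeing the data.

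PRF1 and the lists were chosen with earlier results of these data known. Genes named were the 5 tested neighbours nearest to PRF1 on each side, neighbours called against WT or between days in a tagged line, per list up to 4 members of smallest p in compound cells against WT at day 4, undetected members that define the granule or cell type, the 3 genes next above PRF1 in rank and the 8 genes most like it. Others, namely IL2RB, EOMES, RUNX3, STX11, CDH23, TYSND1 and the remaining named list members outside that rule, were named after their values were seen.

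Replicate numbers were shared by all groups. Correlations of same-numbered deviations lay between -0.70 and 0.293 over 13 comparisons. They passed 0.1 in all 3 pairs only for UHRF1-AID day 4 against day 0 (0.275, 0.175 and 0.153), where the numbers may pair the libraries. The main fits, that comparison included, did not pair libraries, and the replicate block was run as an alternative. Replicates differed by more than sampling noise in all 24 pairs within groups (chi-square per degree of freedom 3.71 to 64.3). Some members of the lists are counted but not reported here by name.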

Additional observations from a re-analysis of the deposited data

Results flagged for a closer look

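The day difference of PRF1 went in opposite directions in WT and in 2 tagged lines. In WT every day 4 library lay under every day 0 library, and in UHRF1-AID and DNMT1-AID cells every day 4 library lay over every day 0 library. The log2 fold change between days exceeded that of WT by 4.88 in UHRF1-AID and by 2.34 in DNMT1-AID cells. The difference was not tested, since PRF1 was chosen for these values. The UHRF1-AID libraries of both days share an alignment folder, and those of WT and DNMT1-AID do not.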

How the results depend on the processing

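PRF1 kept its direction in all comparisons with WT at day 4. Its log2 fold change moved by more than the replicate spread only under ERCC scaling (3.55 for DNMT1-AID and 5.05 for compound cells against WT at day 4) and where compound day 0 replicate 3 was left out (range over single omissions 1.69 to 3.21 for compound against WT at day 0, and 0.91 to 2.45 for compound day 4 against day 0). With the replicate block PRF1 stood at 3.55 for UHRF1-AID between days, beside 3.47 without pairing, and the block moved 2 counts of calls by over 1.5 times: perforin-related list members for compound against WT at day 0 became 0, beside 1, and T and NK markers for compound against UHRF1-AID became 1, beside 2. The block also lost the calls of IL2RB in UHRF1-AID against WT at day 4, of STAT4 and SYTL2 in WT between days and of SAR1A in UHRF1-AID between days.

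With no minimum fold change, neighbours called numbered 1 (compound day 0 against WT), 2, 3 and 6 (UHRF1-AID, DNMT1-AID and compound against WT at day 4), 8, 10, 6 and 11 (WT, UHRF1-AID, DNMT1-AID and compound between days) and 2, 3 and 3 between depleted lines. List members called then numbered 3, then 10, 7 and 17, then 17, 26, 19 and 28, and 7 and 15 for compound against UHRF1-AID and DNMT1-AID cells. With no filter, with all 24 libraries in 1 fit and with DESeq2, list members for compound against WT at day 0 were 2, and neighbours were 1 in UHRF1-AID and 1 in compound cells against WT at day 4 and 2 in compound cells between days. All libraries in 1 fit gave 1 neighbour in DNMT1-AID cells between days, RLE scaling 1 in UHRF1-AID cells between days, the window of 0.5 Mb 0 in compound cells between days, and ERCC scaling 4 in compound cells against WT (COL13A1, MACROH2A2, TYSND1 and LRRC20, all lower). T and NK markers called under those 3 settings, in that order, were 9, 8 and 7 for UHRF1-AID and 2, 2 and 2 for DNMT1-AID against WT at day 4, and 9, 8 and 9 for UHRF1-AID and 5, 5 and 4 for DNMT1-AID between days. For UHRF1-AID against DNMT1-AID they were 5 with no filter and with all libraries in 1 fit. These settings test genes of lower count. Of the 8 genes most like PRF1, Spearman's correlation shared 4, and Pearson's without compound day 0 replicate 3 shared 6.

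Leaving out single libraries, list members called ranged from 0 to 2 for compound against WT at day 0, 1 to 3 for DNMT1-AID against WT at day 4 (1 without WT day 4 replicate 2), 1 to 4 for UHRF1-AID against DNMT1-AID and 1 to 3 for compound against UHRF1-AID. Neighbours ranged from 0 to 2 for DNMT1-AID (ADAMTS14 and UNC5B without WT day 4 replicate 3) and 0 to 1 for compound cells (TYSND1 without the same library) against WT at day 4, 0 to 2 for WT (without day 0 replicate 3) and DNMT1-AID (without day 0 replicate 3), 1 to 3 for UHRF1-AID and 1 to 2 for compound cells between days, 0 to 2 for UHRF1-AID against DNMT1-AID (without UHRF1-AID replicate 1) and 0 to 1 for compound against UHRF1-AID (without UHRF1-AID replicate 2). T and NK markers ranged from 4 to 7 for UHRF1-AID and 1 to 2 for DNMT1-AID between days and 0 to 2 for compound against UHRF1-AID. The cause of these shifts was not tested. Depth limits what was tested: genes such as CDH23, with 19 counts at most, did not pass the main filter in the comparisons with WT.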
